A study of Mus musculus with 6 samples.

Results

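The genes described here are the p53 targets and damage response genes, a list of 35 genes made of the factor p53 itself, its regulators, and genes of growth arrest, cell death, DNA repair and stress sensing. A gene was taken up when the annotation of the array gives at least 1 probe set with its symbol alone, and its level is that of its brightest probe set by the mean of all 6 arrays. By this rule 32 of the 35 genes were measured, out of 17097 genes in all. *Trp53*, which encodes p53, *Bax* and *Tap1* have no such probe set in this annotation and were not analysed here. The 32 genes have 55 probe sets, and 16 of them have more than 1.

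The cells were E14tg2a, a mouse embryonic stem cell (ESC) line, with a doxycycline-inducible *Prdm14* cassette inserted by the piggyBac transposon. Epiblast-like cells (EpiLCs), a culture model of the primed epiblast, were made from them and taken on day 2 or, after replating, on day 4. The arrays labelled *Tet1*/*Tet2* KD + PRDM14 and *Tet1*/*Tet2* KD (d2) are EpiLCs with shRNAs against the DNA demethylation enzymes *Tet1* and *Tet2*. The first had the transgene switched on, and the second was taken at day 2, before that step. EpiLCs + PRDM14, EpiLCs (d2) and EpiLCs (d4) carry a scramble shRNA, and the ESC array has no shRNA in its label. Every PRDM14 culture was also given doxycycline, so that the agent and the transgene cannot be told apart, and ESCs and EpiLCs grew in different media. EpiLCs (d4) are the same-day reference of EpiLCs + PRDM14, whereas EpiLCs (d2) differ from them also in 2 days of culture and in medium. Each condition has 1 array of 1 line, so no difference below has a replicate check and none was tested, and precision is limited by this number of arrays.

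Levels are log2 signals after robust multi-array average normalization (RMA), which the authors did, shifted by 1 constant per array to a common median of 5.28. This shift was at most 0.0047 for the ESC and scramble arrays and raised the KD-labelled arrays by 0.21 more. Differences are log2 differences between a pair of arrays, and a gene is called higher or lower from 1.5-fold, which is 0.58 on this scale. Such a call is a description of that pair of arrays only.

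The labels were set against the arrays first. The only *Prdm14* probe set read 4.91 in the array labelled KD + PRDM14, 5.06 in KD (d2), 4.95 in EpiLCs + PRDM14, 6.95 in ESCs, 5.05 in EpiLCs (d2) and 5.18 in EpiLCs (d4). It was thus not raised in either array labelled + PRDM14, and it was not examined whether the cassette's transcript reaches this probe set. The brighter *Tet2* probe set read 7.97 in KD + PRDM14 and 8.71 in KD (d2), against 8.51 in EpiLCs + PRDM14 and 8.54 in EpiLCs (d2), so that it was not lower in the array labelled KD (d2), and *Tet1* was not analysed here. The mean level of 9 naive ESC markers was 9.55, 8.73 and 9.43 in KD + PRDM14, KD (d2) and EpiLCs + PRDM14, and 9.77, 8.0 and 8.01 in ESCs, EpiLCs (d2) and EpiLCs (d4). The mean of 6 primed epiblast markers was 7.02, 8.51 and 7.14 in the first 3 and 7.05, 8.73 and 8.44 in the other 3. The mean of 5 germ cell markers was highest in the arrays labelled + PRDM14. It was 7.31 in KD + PRDM14, 6.18 in KD (d2), 6.99 in EpiLCs + PRDM14, 6.02 in ESCs, 6.16 in EpiLCs (d2) and 6.42 in EpiLCs (d4). The same-day differences of *Dppa3* and *Tfap2c* were 1.57 and 0.73, while *Ddx4*, *Dnd1* and *Prdm1* were at 0.37, 0.12 and 0.05. That of the neural marker *Tubb3* was 1.31, with 8.25 in EpiLCs + PRDM14 and 8.04 in ESCs. The neural markers *Nes*, *Sox1* and *Pax6* were at 0.19, 0.11 and -0.19. The part of these changes in the values below was not tested. Of 7 fibroblast markers 1 lay above the median of each array, and of 3 blood markers none did. Condition names below are those of the labels.

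The p53 protein is a transcription factor that is kept low in unstressed cells by MDM2, an E3 ubiquitin ligase, and by MDM4, a relative that binds and blocks it. Damage to DNA and other stresses free p53, which then switches on genes that halt the cell cycle, repair DNA, limit growth signalling or start apoptosis. Mouse ESCs are known for abundant p53 that lies largely in the cytoplasm and for a weak G1 checkpoint. Many genes of the list have other regulators as well, so that their transcript level is no measure of p53 activity, and p53 itself is controlled mainly as a protein, which arrays do not measure.

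p53 binds as a tetramer to a pair of half-sites of 10 bases, each of 3 purines, a C, 2 bases that are A or T, a G and 3 pyrimidines, a pattern that reads alike on both strands. The RefSeq promoter windows (GRCm38.p6) of 300 bases around annotated starts were searched for it. They cover 24 of the 32 genes in 31 windows, some of which overlap. A half-site without mismatch stood in 9 of these windows (29.0%), belonging to 8 genes, where 8.36% of the 32841 windows of all genes hold one. A pair with a spacer of at most 13 bases and at most 2 mismatches in all, none of them in the C or G of the core, stood in the windows of 4 genes, which is 12.9% of the windows against 4.09% of all windows. These were *Cdkn1a*, *Ccng1*, *Gadd45a* and *Sesn1*. Shown are *Sesn1*, as the gene with the largest same-day difference, and *Cdkn1a* and *Ccng1*, as those with the fewest mismatches, which were picked after the search. The capitals mark half-sites without mismatch and the half-sites of each pair, and all windows run 5′ to 3′ on the strand of the gene.
Sesn1 (second annotated start, chr10:41887189-41887488, plus strand): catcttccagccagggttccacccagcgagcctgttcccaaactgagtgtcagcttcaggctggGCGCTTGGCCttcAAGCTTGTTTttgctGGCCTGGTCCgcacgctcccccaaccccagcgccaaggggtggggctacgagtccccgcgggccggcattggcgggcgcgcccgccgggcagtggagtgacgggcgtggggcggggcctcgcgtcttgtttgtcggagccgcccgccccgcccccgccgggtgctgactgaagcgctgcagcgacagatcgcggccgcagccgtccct
Cdkn1a (first annotated start, chr17:29090729-29091028, plus strand): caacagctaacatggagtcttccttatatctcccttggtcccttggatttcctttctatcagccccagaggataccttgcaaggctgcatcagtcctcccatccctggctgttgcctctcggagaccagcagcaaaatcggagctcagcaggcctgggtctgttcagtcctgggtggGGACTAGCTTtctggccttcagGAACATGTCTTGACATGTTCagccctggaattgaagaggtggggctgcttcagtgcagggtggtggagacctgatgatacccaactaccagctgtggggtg
Ccng1 (chr11:40755237-40755536, minus strand): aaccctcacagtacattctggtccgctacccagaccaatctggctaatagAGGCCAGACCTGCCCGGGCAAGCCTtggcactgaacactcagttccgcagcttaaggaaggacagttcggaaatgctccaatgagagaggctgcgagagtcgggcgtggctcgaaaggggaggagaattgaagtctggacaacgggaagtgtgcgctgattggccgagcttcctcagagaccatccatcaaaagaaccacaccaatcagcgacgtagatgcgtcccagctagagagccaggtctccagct
In *Cdkn1a*, a pair without mismatch and with a spacer of 12 bases began at position -73 from the start (the base before the start being -1), and its second half-site also formed a pair with no spacer and 1 mismatch. In *Ccng1*, a pair with no spacer and 1 mismatch began at position -195. In *Sesn1*, 2 pairs that share a half-site began at positions -186 and -173 from the second start, with spacers of 3 and 5 bases and 2 mismatches each, while the window of the first start held none. Neither the window of *Plk2* nor those of *Mdm4* held a half-site, and *Perp* and *Pmaip1* are among the genes without a window. A match is a description of the letters and does not show binding. The windows of the listed genes had a median of 22 CpG dinucleotides (range 2 to 46), where all windows had a median of 7, and the sequence TATAAA stood on either strand in 2 of the 31 windows, against 13.6% of all windows.

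Most of these genes were bright on these arrays. The mean level of 23 of the 32 lay in the top 25% of all probe sets, and that of 3 lay below the median probe set, namely *Fas*, *Sfn* and *Ddb2*. By the same rule of the brightest probe set, 6373 of all 17097 genes lay in that top 25%. *Ddb1*, *Ccng1*, *Trp53inp1*, *Mdm2* and *Ei24* were the brightest, although signals of different probe sets do not rank transcripts by abundance. Among the EpiLCs + PRDM14, ESC, EpiLCs (d2) and EpiLCs (d4) arrays, 14 genes had their highest level in EpiLCs + PRDM14, 3 in ESCs, 7 in EpiLCs (d2) and 8 in EpiLCs (d4), and 18 had their lowest level in ESCs. Over all 8 comparisons made, 16 genes passed 1.5-fold at least once and 16 never did. Apart from that of the top 25%, these counts were not made over all genes. They therefore do not show whether the listed genes differ from others in this.

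**Figure D1:**
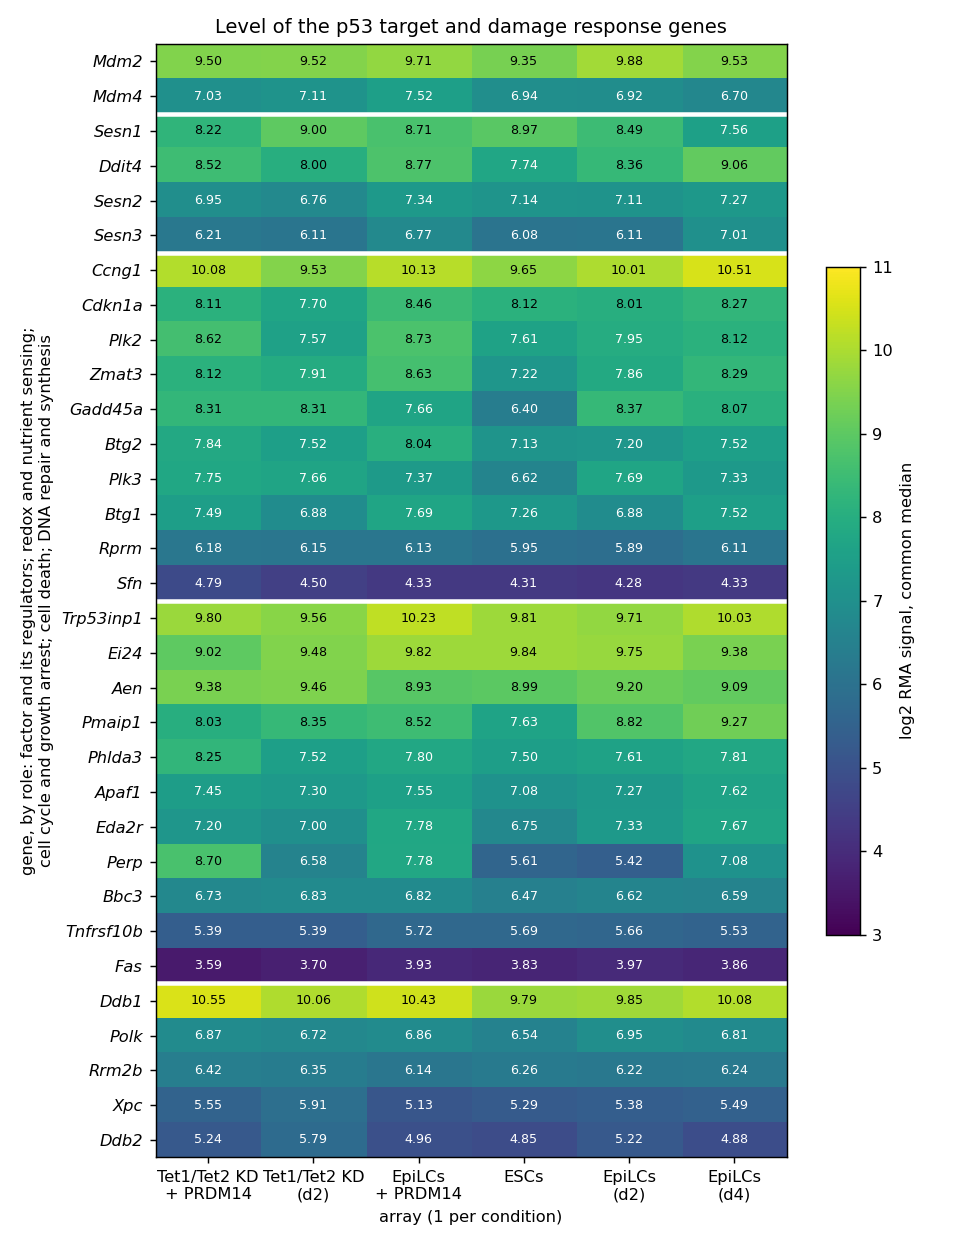
Level of the 32 measured genes (rows, in blocks by role) on each of the 6 arrays (columns, 1 array per condition), as log2 RMA signal on the common median scale, with the value printed in each cell. *Fas* stayed between 3.59 and 3.97, whereas *Perp* spanned 5.42 to 8.70.

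In the same-day comparison, EpiLCs + PRDM14 against EpiLCs (d4), 4 of the 32 genes were higher by 1.5-fold or more and 1 was lower. The higher genes were *Sesn1* (1.15), *Mdm4* (0.82), *Perp* (0.70) and *Plk2* (0.61), and the lower gene was *Pmaip1* (-0.75). Over all 17097 genes 1.88% were higher and 2.15% lower in this pair. The other 27 genes lay within 1.5-fold, the median of the 32 was 0.08, and that of all genes was 0.01. Because bright probe sets pass more often, the 23 genes in the top 25% of signal were also set beside the 6373 genes that share this range. All 5 of the calls fell among these 23 genes, and of the 6373 genes 3.61% were higher and 3.51% lower.

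Against EpiLCs (d2), the array taken before the transgene was switched on, 7 genes were higher in EpiLCs + PRDM14 (2.73% of all genes) and 1 was lower (1.91% of all genes). These were *Perp* (2.36), *Btg2* (0.85), *Btg1* (0.81), *Plk2* (0.78), *Zmat3* (0.77), *Sesn3* (0.66) and *Mdm4* (0.60), and *Gadd45a* (-0.71). The median of the 32 genes was 0.21, that of all genes -0.01. Part of this list also differed between arrays in which the transgene was not switched on. In EpiLCs (d4) against EpiLCs (d2), 4 genes were higher (2.17% of all genes), which were *Perp* (1.66), *Sesn3* (0.90), *Ddit4* (0.70) and *Btg1* (0.63), and *Sesn1* (-0.93) was lower (1.13% of all genes). The median was 0.16 for the 32 genes and -0.01 for all genes. Both comparisons share the array of EpiLCs (d2), as the same-day comparison and this one share EpiLCs (d4), so that an error in a shared array enters both values.

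Set against ESCs, EpiLCs (d2) had 5 higher genes (2.32% of all genes) and 0 lower genes (2.7% of all genes). The 5 were *Gadd45a* (1.96), *Pmaip1* (1.18), *Plk3* (1.07), *Zmat3* (0.64) and *Ddit4* (0.62). In EpiLCs + PRDM14 against ESCs 11 genes were higher (2.87% of all genes) and 0 lower (2.27% of all genes), the most among the 8 comparisons. They were *Perp* (2.17), *Zmat3* (1.41), *Gadd45a* (1.25), *Plk2* (1.11), *Ddit4* (1.03), *Eda2r* (1.03), *Btg2* (0.91), *Pmaip1* (0.89), *Plk3* (0.75), *Sesn3* (0.68) and *Ddb1* (0.64). Of the 23 genes in the top 25% of signal, 10 were higher and 0 lower. Of all 6373 genes in this range, 4.90% were higher and 3.89% lower. The median of the 32 genes was 0.38, where that of all genes was -0.01, and 27 of the 32 differences were above 0. EpiLCs (d4), with the transgene not switched on, were also set against ESCs, a comparison added after the values were seen. There 9 genes were higher (4.11% of all genes), with *Gadd45a* (1.66), *Pmaip1* (1.64), *Perp* (1.47), *Ddit4* (1.31), *Zmat3* (1.06), *Sesn3* (0.92), *Eda2r* (0.92), *Ccng1* (0.85) and *Plk3* (0.71), and *Sesn1* (-1.42) was lower (3.47% of all genes). So 8 of the 11 genes that were higher in EpiLCs + PRDM14 than in ESCs were also higher in EpiLCs (d4) than in ESCs, and both comparisons share the ESC array. The other 3 were *Plk2*, *Btg2* and *Ddb1*, at 0.50, 0.39 and 0.28 in EpiLCs (d4) against ESCs. In EpiLCs (d4) against ESCs the median was 0.23 for the 32 genes and -0.02 for all genes. There, too, 27 of the 32 differences were above 0. Neither the overlap of both comparisons nor the differences above 0 were counted over all genes, so they have no background share.

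**Figure D2:**
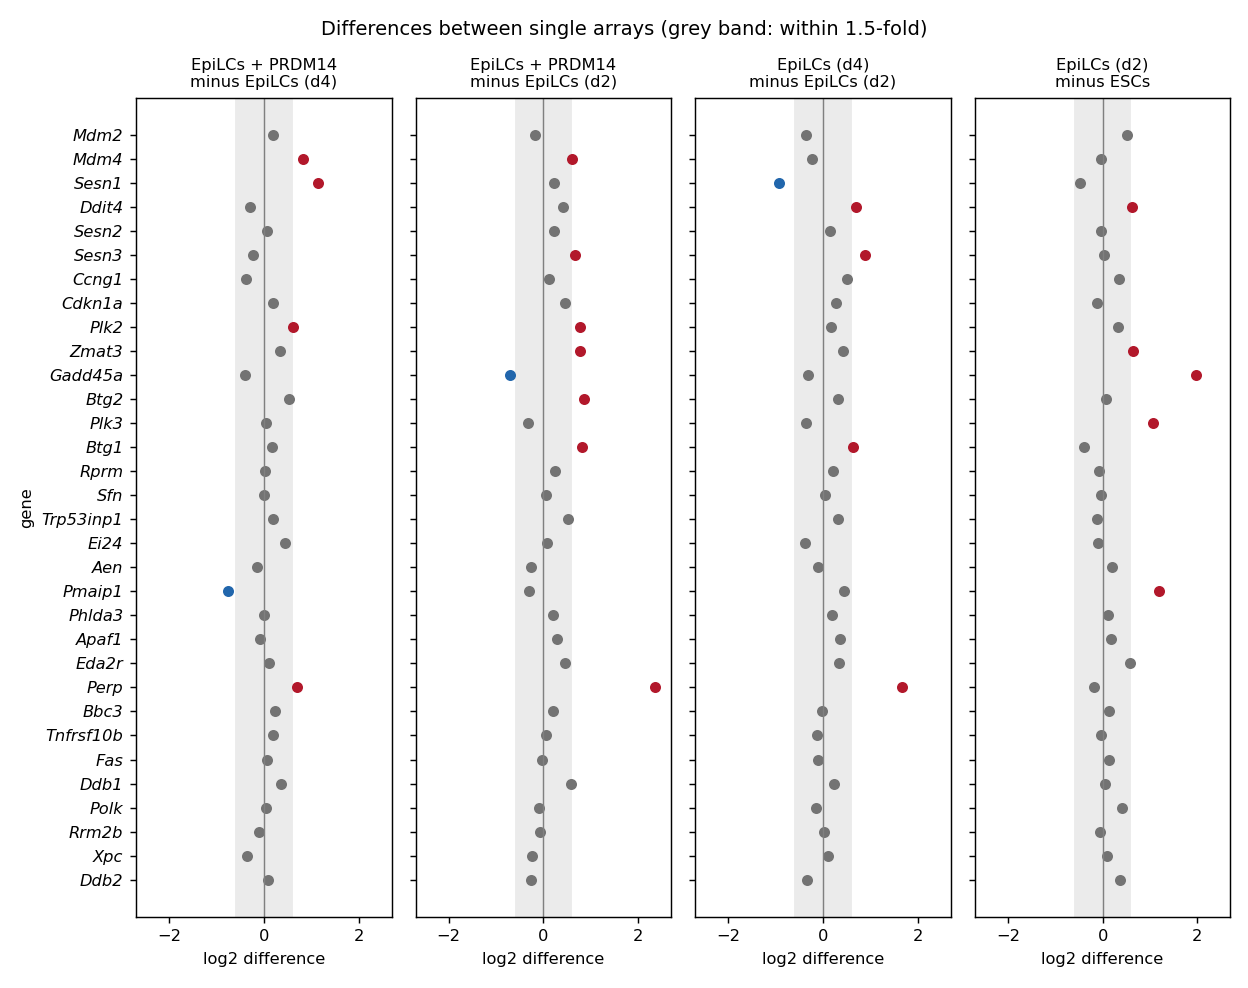
Log2 differences of the 32 genes (rows) in 4 pairs of arrays (panels), each the first array named minus the second, with 1 array per condition and therefore no error bars. Red points were higher and blue points lower by 1.5-fold or more, and the grey band holds the rest. In the panel of EpiLCs + PRDM14 minus EpiLCs (d4), *Sesn1* (1.15) lies farthest to the right and *Pmaip1* (-0.75) farthest to the left.

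**Figure D3:**
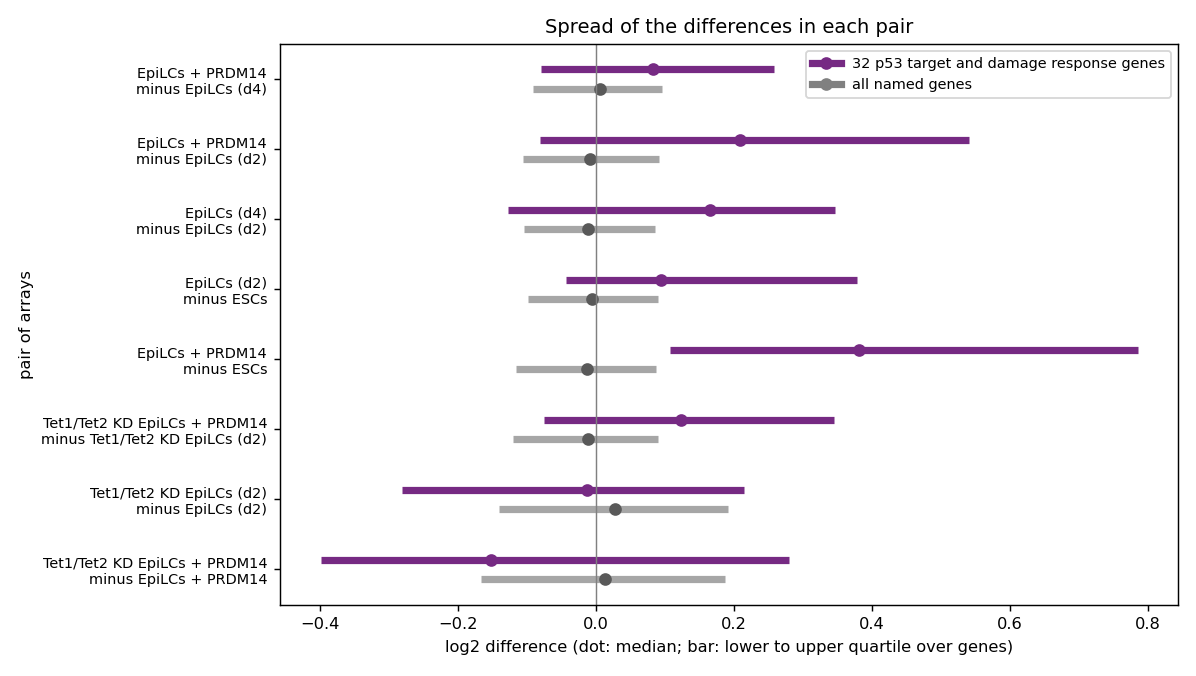
Median (dot) and lower to upper quartile (bar) of the log2 differences over the 32 genes and over all 17097 named genes, for each of the 8 pairs of arrays. The median of the 32 genes was highest in EpiLCs + PRDM14 minus ESCs (0.38) and lowest in KD + PRDM14 minus EpiLCs + PRDM14 (-0.15).

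The regulators of p53 differed from each other. *Mdm2*, both a repressor of p53 and one of its targets, had a level of 9.50 in KD + PRDM14, 9.52 in KD (d2), 9.71 in EpiLCs + PRDM14, 9.35 in ESCs, 9.88 in EpiLCs (d2) and 9.53 in EpiLCs (d4). It was within 1.5-fold in every comparison, the largest difference being 0.52 for EpiLCs (d2) against ESCs. Its second, dimmer probe set passed there (0.63) and in KD (d2) against EpiLCs (d2) (-0.83). *Mdm4* read 7.03 in KD + PRDM14, 7.11 in KD (d2), 7.52 in EpiLCs + PRDM14, 6.94 in ESCs, 6.92 in EpiLCs (d2) and 6.70 in EpiLCs (d4). The array of EpiLCs + PRDM14 was thus the highest of the 6. The *Mdm4* calls rest on 1 of 4 probe sets, since the other 3 differed by 0.34, -0.02 and 0.15 in the same-day comparison.

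Sestrins bind the amino acid sensing branch of the mTORC1 pathway and restrain it under stress, and the 3 genes did not move together. *Sesn1*, in mammals a classic p53 target, read 8.22 in KD + PRDM14, 9.0 in KD (d2), 8.71 in EpiLCs + PRDM14, 8.97 in ESCs, 8.49 in EpiLCs (d2) and 7.56 in EpiLCs (d4). EpiLCs (d4) were the lowest, and EpiLCs + PRDM14 lay between EpiLCs (d2) and ESCs. All 3 probe sets of *Sesn1* passed 1.5-fold in both comparisons with EpiLCs (d4), with 0.86, 1.15 and 1.30 for EpiLCs + PRDM14 against EpiLCs (d4) and -0.68, -0.93 and -1.20 for EpiLCs (d4) against EpiLCs (d2). Both comparisons use the array of EpiLCs (d4), in which *Sesn1* was lowest, so that they are 1 observation of that array and not independent. *Sesn3*, which in other cells is driven by FOXO factors, went the other way at day 4, with levels of 6.21 in KD + PRDM14, 6.11 in KD (d2), 6.77 in EpiLCs + PRDM14, 6.08 in ESCs, 6.11 in EpiLCs (d2) and 7.01 in EpiLCs (d4). Its second, dim probe set read 4.56 to 4.89 and stayed within 1.5-fold. *Sesn2* stayed between 6.76 and 7.34. *Ddit4*, which encodes REDD1, another brake on mTORC1 that also answers to hypoxia and glucocorticoids, read 8.52 in KD + PRDM14, 8.0 in KD (d2), 8.77 in EpiLCs + PRDM14, 7.74 in ESCs, 8.36 in EpiLCs (d2) and 9.06 in EpiLCs (d4). It was lowest in ESCs and highest in EpiLCs (d4), and its same-day difference was -0.29.

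Of the 10 genes of cell cycle and growth arrest, *Plk2* alone passed 1.5-fold in the same-day comparison, and the range of the 10 was -0.41 to 0.61. *Cdkn1a*, which encodes the CDK inhibitor p21, read 8.11 in KD + PRDM14, 7.70 in KD (d2), 8.46 in EpiLCs + PRDM14, 8.12 in ESCs, 8.01 in EpiLCs (d2) and 8.27 in EpiLCs (d4). EpiLCs + PRDM14 had the highest level, but the same-day difference was 0.19 and no comparison passed. The second *Cdkn1a* probe set read 7.81, 6.75, 8.06, 7.29, 7.50 and 7.64 on the same arrays in the same order. By it EpiLCs + PRDM14 were 0.76 higher than ESCs, KD + PRDM14 was 1.07 higher than KD (d2), and KD (d2) was lower than EpiLCs (d2) by a difference of -0.75.

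The polo-like kinases PLK2 and PLK3 act in the stress response and around S phase. *Plk2* read 8.62 in KD + PRDM14, 7.57 in KD (d2), 8.73 in EpiLCs + PRDM14, 7.61 in ESCs, 7.95 in EpiLCs (d2) and 8.12 in EpiLCs (d4). Both arrays labelled + PRDM14 were above the other 4, and *Plk2* passed 1.5-fold in 4 of the 8 comparisons. *Plk3* read 7.75 in KD + PRDM14, 7.66 in KD (d2), 7.37 in EpiLCs + PRDM14, 6.62 in ESCs, 7.69 in EpiLCs (d2) and 7.33 in EpiLCs (d4). ESCs were its lowest array, and the EpiLC arrays spanned 7.33 to 7.75.

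*Zmat3*, which encodes a zinc finger protein that binds RNA, read 8.12 in KD + PRDM14, 7.91 in KD (d2), 8.63 in EpiLCs + PRDM14, 7.22 in ESCs, 7.86 in EpiLCs (d2) and 8.29 in EpiLCs (d4). It was lowest in ESCs and highest in EpiLCs + PRDM14. *Gadd45a*, the gene of a stress protein that binds PCNA and p21, had the largest gap between ESCs and EpiLCs (d2), with 8.31 in KD + PRDM14, 8.31 in KD (d2), 7.66 in EpiLCs + PRDM14, 6.40 in ESCs, 8.37 in EpiLCs (d2) and 8.07 in EpiLCs (d4). EpiLCs + PRDM14 lay between ESCs and the other EpiLC arrays, and their same-day difference of -0.41 was within 1.5-fold.

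BTG1 and BTG2 slow proliferation and link transcripts to the CCR4-NOT deadenylase. *Btg2* read 7.84 in KD + PRDM14, 7.52 in KD (d2), 8.04 in EpiLCs + PRDM14, 7.13 in ESCs, 7.20 in EpiLCs (d2) and 7.52 in EpiLCs (d4). *Btg1* read 7.49 in KD + PRDM14, 6.88 in KD (d2), 7.69 in EpiLCs + PRDM14, 7.26 in ESCs, 6.88 in EpiLCs (d2) and 7.52 in EpiLCs (d4). Both were highest in EpiLCs + PRDM14, with same-day differences of 0.53 and 0.17 that did not pass. Each has a second, dimmer probe set that stayed within 1.5-fold where the first passed, at 0.17 for *Btg2* and 0.07 for *Btg1* in EpiLCs + PRDM14 against EpiLCs (d2). The remaining genes of this group did not pass by their brightest probe set in any of the 8 comparisons. They were *Ccng1*, the gene of cyclin G1 (9.53 to 10.51, highest in EpiLCs (d4)), *Rprm*, which in human cells encodes a G2 arrest protein (5.89 to 6.18), and *Sfn*, the gene of 14-3-3 sigma (4.28 to 4.79). Another *Ccng1* probe set passed in KD + PRDM14 against KD (d2) (0.62) and in KD (d2) against EpiLCs (d2) (-0.78).

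**Figure D4:**
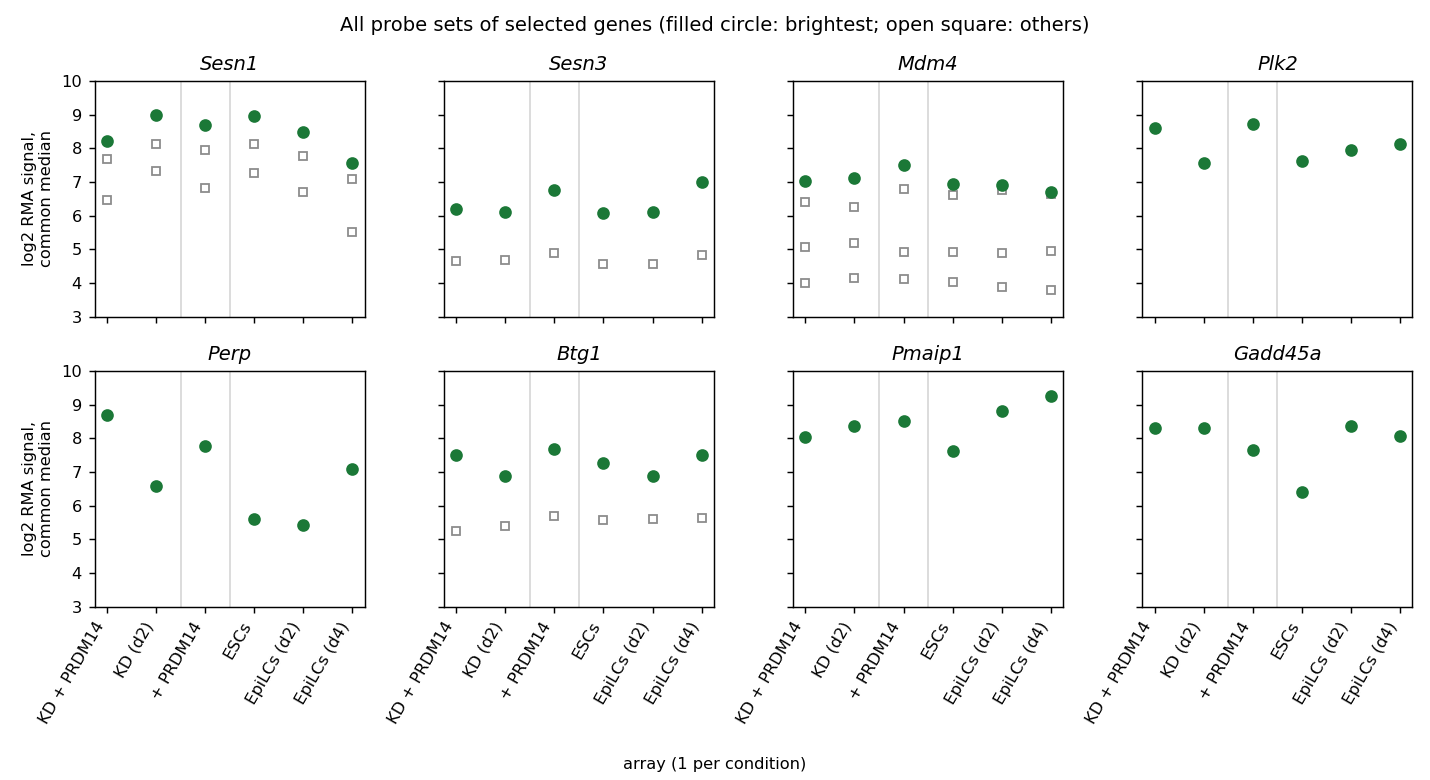
Level (log2 RMA signal on the common median scale) of every probe set of 8 genes on the 6 arrays, with the brightest probe set as a filled circle and the others as open squares. The 3 probe sets of *Sesn1* all have their lowest level in EpiLCs (d4), whereas only the brightest *Mdm4* probe set stands out in EpiLCs + PRDM14 (7.52).

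Among the 11 genes of cell death, *Perp* was higher and *Pmaip1* lower in EpiLCs + PRDM14 than in EpiLCs (d4), and 9 were within 1.5-fold. *Perp* encodes a membrane protein of desmosomes that is also an effector of p53-dependent apoptosis. It had the widest range of the 32 genes, with 8.70 in KD + PRDM14, 6.58 in KD (d2), 7.78 in EpiLCs + PRDM14, 5.61 in ESCs, 5.42 in EpiLCs (d2) and 7.08 in EpiLCs (d4). ESCs and EpiLCs (d2) were low, EpiLCs (d4) and both arrays labelled + PRDM14 were high, and *Perp* passed in 7 of the 8 comparisons. Keratins of simple epithelia also differed between these arrays. *Krt8* read 10.04 in KD + PRDM14, 8.93 in KD (d2), 8.19 in EpiLCs + PRDM14, 7.76 in ESCs, 7.49 in EpiLCs (d2) and 9.58 in EpiLCs (d4), and *Krt7* read 6.70, 5.31, 5.55, 5.02, 4.87 and 6.06 in the same order. In EpiLCs + PRDM14 against EpiLCs (d4), however, *Krt8* (-1.38) and *Perp* (0.70) had opposite signs. The mean of the 5 trophoblast markers that hold these keratins was 6.96 in KD + PRDM14, 6.38 in KD (d2), 6.28 in EpiLCs + PRDM14, 6.05 in ESCs, 5.99 in EpiLCs (d2) and 6.62 in EpiLCs (d4), and its part in the *Perp* values was not tested. The trophoblast factor gene *Cdx2* stayed between 5.74 and 5.84.

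*Pmaip1*, which encodes NOXA, a BH3-only protein that promotes apoptosis, read 8.03 in KD + PRDM14, 8.35 in KD (d2), 8.52 in EpiLCs + PRDM14, 7.63 in ESCs, 8.82 in EpiLCs (d2) and 9.27 in EpiLCs (d4). It was lowest in ESCs and highest in EpiLCs (d4), with EpiLCs + PRDM14 between them. *Eda2r*, the gene of a receptor for ectodysplasin A2, was also lowest in ESCs, with 7.20 in KD + PRDM14, 7.0 in KD (d2), 7.78 in EpiLCs + PRDM14, 6.75 in ESCs, 7.33 in EpiLCs (d2) and 7.67 in EpiLCs (d4). It was highest in EpiLCs + PRDM14, at a same-day difference of 0.11. *Phlda3*, which encodes an inhibitor of AKT, read 8.25 in KD + PRDM14, 7.52 in KD (d2), 7.80 in EpiLCs + PRDM14, 7.50 in ESCs, 7.61 in EpiLCs (d2) and 7.81 in EpiLCs (d4), so that 1 array stood above the other 5.

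*Ei24*, the gene of an endoplasmic reticulum protein, read 9.02 in KD + PRDM14, 9.48 in KD (d2), 9.82 in EpiLCs + PRDM14, 9.84 in ESCs, 9.75 in EpiLCs (d2) and 9.38 in EpiLCs (d4). It passed only where KD + PRDM14 was set against EpiLCs + PRDM14. The other genes of the group stayed within 1.5-fold in all 8 comparisons. *Bbc3*, the gene of the BH3-only protein PUMA, spanned 6.47 to 6.83, and *Apaf1*, the scaffold of the apoptosome, spanned 7.08 to 7.62. The death receptor genes were *Fas* (3.59 to 3.97), which was dim on every array, and *Tnfrsf10b* (5.39 to 5.72), which lay a little above the array median. *Trp53inp1*, with a role in autophagy and cell death, lay between 9.56 and 10.23, and *Aen*, the gene of a nuclease of apoptosis, between 8.93 and 9.46.

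None of the 5 genes of DNA repair and synthesis passed in the same-day comparison, where they ranged from -0.35 to 0.36. *Ddb1*, the adaptor of the CUL4 ubiquitin ligases that also forms the UV damage sensor with DDB2, read 10.55 in KD + PRDM14, 10.06 in KD (d2), 10.43 in EpiLCs + PRDM14, 9.79 in ESCs, 9.85 in EpiLCs (d2) and 10.08 in EpiLCs (d4). Both arrays labelled + PRDM14 were above the other 4. *Ddb2* (4.85 to 5.79) and *Xpc*, the gene of the factor that recognises distorted DNA in nucleotide excision repair (5.13 to 5.91), had their highest level in KD (d2). *Polk*, the gene of the translesion polymerase kappa, spanned 6.54 to 6.95, and *Rrm2b*, the gene of the p53-inducible subunit of ribonucleotide reductase, spanned 6.14 to 6.42. A second, dimmer *Polk* probe set was higher by 0.82 in KD (d2) than in EpiLCs (d2) and by 0.76 in KD + PRDM14 than in EpiLCs + PRDM14.

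The comparison of KD + PRDM14 with KD (d2) stands beside that of EpiLCs + PRDM14 with EpiLCs (d2). The KD arrays have no day 4 reference here, so this pair, too, cannot tell PRDM14 from 2 days of culture, medium and doxycycline. Here 4 genes were higher (2.13% of all genes), namely *Perp* (2.12), *Plk2* (1.05), *Phlda3* (0.74) and *Btg1* (0.61), and *Sesn1* (-0.78) was lower (2.52% of all genes). *Perp*, *Plk2* and *Btg1* were past 1.5-fold and higher in both pairs, while *Btg2*, *Zmat3*, *Sesn3* and *Mdm4* passed in the scramble pair alone, with 0.32, 0.21, 0.10 and -0.08 in the KD pair. *Sesn1* differed by -0.78 in the KD pair and by 0.22 in the scramble pair. For this gene 2 of the 3 probe sets passed in the KD pair, and the remaining one was at -0.44. With the transgene not switched on, EpiLCs (d4) against EpiLCs (d2) gave 1.66 for *Perp*, 0.63 for *Btg1* and -0.93 for *Sesn1*. These had the same directions as in the KD pair. The other genes called in the KD pair, *Plk2* (0.17) and *Phlda3* (0.20), were within 1.5-fold in EpiLCs (d4) against EpiLCs (d2). Whether the pairs differ was not tested, since each has 1 array per condition. The median of the 32 genes was 0.12 in the KD pair and 0.21 in the scramble pair.

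**Figure D5:**
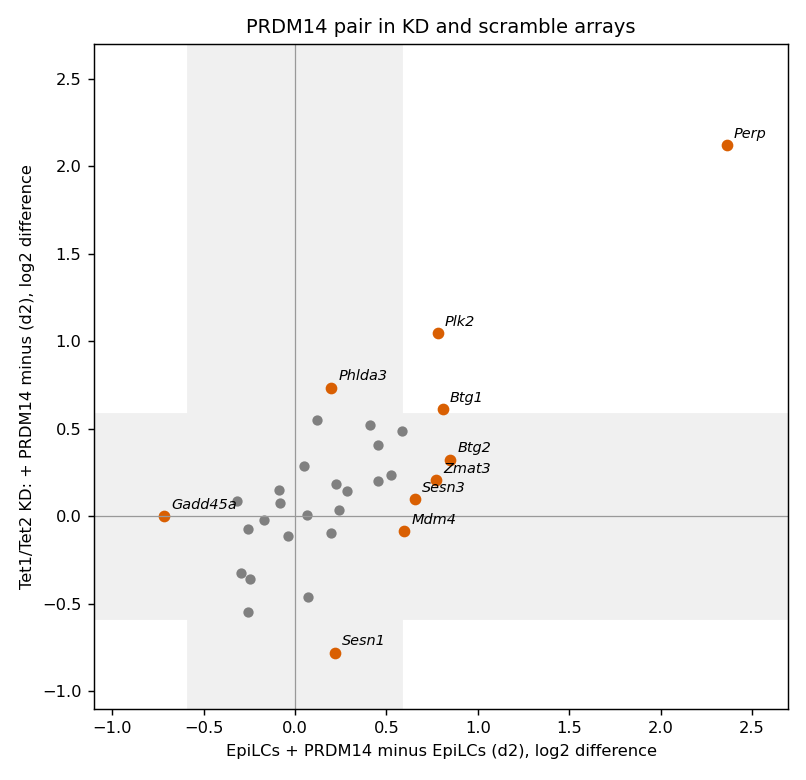
Log2 differences of the 32 genes (points) for *Tet1*/*Tet2* KD + PRDM14 minus *Tet1*/*Tet2* KD (d2) on the vertical axis and for EpiLCs + PRDM14 minus EpiLCs (d2) on the horizontal axis, with genes past 1.5-fold in either pair named and in orange. *Perp* (2.12 and 2.36) is high in both, and *Sesn1* (-0.78 and 0.22) has opposite signs.

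For the KD arrays against their scramble counterparts the result depends on the shift to a common median. In KD (d2) against EpiLCs (d2), *Perp* (1.16) was higher (3.3% of all genes) and 0 genes were lower (2.25% of all genes), with a median of -0.01 for the 32 genes and 0.03 for all genes. In KD + PRDM14 against EpiLCs + PRDM14, *Perp* (0.92) and *Gadd45a* (0.65) were higher (3.58% of all genes) and *Ei24* (-0.80) was lower (3.38% of all genes). The median was -0.15 for the 32 genes and 0.01 for all genes. All 4 sestrin and *Ddit4* differences in this pair were below 0, in a range of -0.56 to -0.25, and the 5 repair genes were at 0.01 to 0.42, and none of these 9 passed. On the values as deposited, which lie 0.21 lower in the KD arrays, *Sesn1*, *Sesn2* and *Sesn3* passed 1.5-fold in this pair (-0.70, -0.60 and -0.77), and *Polk* (-0.20) and *Ddb1* (-0.10) were below 0. In that setting 1 gene was higher and 3 were lower in KD (d2) against EpiLCs (d2), where 1.12% of all genes were higher and 7.46% lower. In KD + PRDM14 against EpiLCs + PRDM14 1 gene was higher and 9 were lower, where 1.41% of all genes were higher and 9.58% lower.

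The genes around the list were taken from 9 further lists with 219 symbols, of which 190 were measured. Beside the counts below, 1.88% of all genes were higher and 2.15% lower in EpiLCs + PRDM14 against EpiLCs (d4). Of the 21 damage sensors and kinases, such as *Atm* and *Atr*, and of the 24 regulators of p53 none passed 1.5-fold in EpiLCs + PRDM14 against EpiLCs (d4), nor did any of 8 housekeeping genes. Of 45 further p53 targets 2 were higher, which were *Ak1* (0.90), the gene of adenylate kinase 1, and *Klf4* (2.00). *Klf4* is also a gene of naive pluripotency and read 7.25 in EpiLCs + PRDM14, against 9.21 in ESCs, 5.25 in EpiLCs (d2) and 5.26 in EpiLCs (d4).

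Of 24 genes of the BCL2 family and caspases, *Bmf*, which encodes a BH3-only protein as *Pmaip1* does, was lower (-0.66) and none was higher. In nucleotide excision repair 1 of 20 genes was higher, *Xpa* (0.94), and in double-strand break repair 1 of 19, *Brca1* (0.65). Of 18 CDK inhibitors and cyclins of G1 with their partners, *Rb1* (0.80) and *Cdkn2b* (0.67) were higher and the CDK inhibitor gene *Cdkn1c* (-1.39) and the cyclin gene *Ccne2* (-0.84) were lower. *Cdkn1c* read 6.93 in EpiLCs + PRDM14, against 5.11 in ESCs, 7.59 in EpiLCs (d2) and 8.33 in EpiLCs (d4). Of 15 genes of the unfolded protein and stress response *Gadd45g* was lower (-0.77), with 6.79 in EpiLCs + PRDM14, against 4.38 in ESCs, 7.27 in EpiLCs (d2) and 7.57 in EpiLCs (d4). In ESCs both *Gadd45a* and *Gadd45g* had their lowest level of the 6 arrays, and in EpiLCs + PRDM14 both lay below EpiLCs (d4), the first within 1.5-fold. The median differences of these 9 lists in the same-day comparison lay between -0.06 and 0.08, where the 32 genes had 0.08 and all genes 0.01.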

How the data were processed

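Transcripts were measured on Affymetrix mouse array strips, 1 array for each of 6 conditions. The authors normalized the scans by RMA with default settings, and the deposited values are log2 signals. Affymetrix Expression Console is named in the submitters' notes, in a version not given in the sources used here. Medians of the deposited columns were 5.07 for the KD-labelled arrays and 5.28 to 5.29 for the others, so levels and comparisons across them used arrays shifted to a common median, while other differences used deposited values. Besides 104 control probe sets, 28898 of 45037 probe sets have 1 gene symbol in GEO's platform annotation, 551 several and 15588 none. No test was run, since no condition has replicates. The genes and all lists were chosen with earlier results of these data known. Genes past 1.5-fold in any comparison, with *Mdm2* and *Cdkn1a*, have their 6 levels in the text, and at most 4 genes per further list, past it in the same-day comparison, are named. *Atm*, *Atr*, *Cdx2*, the keratin genes and the germ cell and neural markers fall outside this rule. Alternatives were a 2-fold threshold, the mean of a gene's probe sets, a filter on dim probe sets, quantile normalization, the shift for all arrays or none, and EpiLCs (d2) as reference, with EpiLCs (d4) against ESCs added after the values were seen. The 3' minus 5' control signals were -0.13 to 0.10 for *Gapdh* and 0.41 to 0.66 for *Actb*. Python 3.11.15, pandas 2.3.3 and NumPy 2.4.6 were used.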

Additional observations from a re-analysis of the deposited data

Results flagged for a closer look

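For 3 genes the PRDM14 pair had opposite signs in the KD-labelled arrays and in the scramble arrays, with 1 of the 2 values past 1.5-fold. *Sesn1* differed by -0.78 in KD + PRDM14 against KD (d2) and by 0.22 in EpiLCs + PRDM14 against EpiLCs (d2). *Mdm4* differed by -0.085 in the KD pair and by 0.60 in the scramble pair. The *Mdm4* call rests on 1 of 4 probe sets, the others being at 0.23, 0.03 and 0.03 in the scramble pair. *Gadd45a* differed by 0.000307 in the KD pair, which is next to no difference, and by -0.71 in the scramble pair. With 1 array per condition the difference between the pairs was not tested for any of them.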

How the results depend on the processing

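No paired analysis was possible because every condition has 1 array and no test was run. The counts at 2-fold and with the mean of probe sets were not made over all genes, so no background share stands beside them. With a 2-fold threshold, 1 of the 32 genes passed in EpiLCs + PRDM14 against EpiLCs (d4), 1 in EpiLCs + PRDM14 against EpiLCs (d2), 1 in EpiLCs (d4) against EpiLCs (d2), 3 in EpiLCs (d2) against ESCs, 6 in EpiLCs + PRDM14 against ESCs, 2 in KD + PRDM14 against KD (d2) and 0 in KD + PRDM14 against EpiLCs + PRDM14. With the mean of all probe sets of a gene, 4 genes passed in EpiLCs + PRDM14 against EpiLCs (d2), 3 in EpiLCs (d4) against EpiLCs (d2) and 2 in KD (d2) against EpiLCs (d2). *Mdm4* then fell below the threshold, at 0.32 against EpiLCs (d4) and 0.22 against EpiLCs (d2), and after quantile normalization it was at 0.58 in the second of these, just under it. With the mean of probe sets, *Btg2*, *Sesn3* and *Btg1* fell below the threshold too. They were at 0.51, 0.48 and 0.44 in EpiLCs + PRDM14 against EpiLCs (d2). *Sesn3* and *Btg1* were at 0.57 and 0.32 in EpiLCs (d4) against EpiLCs (d2). *Btg2* and *Sesn3* were at 0.42 and 0.50 in EpiLCs + PRDM14 against ESCs, and *Btg1* at 0.24 in the KD pair. With EpiLCs (d2) in place of EpiLCs (d4) as the reference of EpiLCs + PRDM14, 8 genes passed. On the values as deposited, 4 genes passed in KD (d2) against EpiLCs (d2) (1 higher, 3 lower) and 10 in KD + PRDM14 against EpiLCs + PRDM14 (1 higher, 9 lower), with medians of -0.23 and -0.37, and *Gadd45a* in the second pair was at 0.44. The deposited medians of the KD-labelled arrays are lower, so that this setting moves every gene down. The filter on dim probe sets and the median shift of all arrays changed no count of genes by over 1.5 times. None of the medians, and none of the genes past 1.5-fold in a comparison, changed sign under the settings run. Genes near 0 did on the deposited values, where 8 of the 32 genes were above 0 in KD (d2) against EpiLCs (d2) and 9 in KD + PRDM14 against EpiLCs + PRDM14, in place of 16 and 12 after the shift. Replicate error is not known for any value.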
